A study of Mus musculus with 9 samples.

Results

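The RNA of mouse embryonic stem (ES) cells that overexpress Yap1 was compared with that of their control cells. The comparison sets 1 library, Yap1_OE, against 1 library, BirA, which the labels name as its control. These are 2 of the 9 libraries of the study. All gene rows of the deposited table entered except blank rows, symbols turned into dates, and small RNA rows, which left 18336 of 23277 rows. Of these genes, 11514 stood at 1 FPKM or more in at least 1 of the 2 libraries and were compared. FPKM is a gene's fragment number divided by the length of its transcript in kilobases and by the size of the library.

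Both libraries come from J1, an ES cell line of strain 129S4/SvJae, grown for 5 to 7 passages, and polyadenylated RNA was measured. ESC, the control of the libraries labelled as Yap1 knockouts, served as a second control, and 11644 genes reached 1 FPKM in at least 1 of Yap1_OE, BirA and ESC. The remaining undifferentiated control, named Control, belongs to the Yap1 knockdown library Yap1_KD1, and differentiated cells with and without the knockdown make up dESC_Yap1_KD1 and dESC_control. BirA is the name of a bacterial biotin ligase used to tag proteins. What the BirA and Yap1_OE cells carry, which promoter drives the added Yap1, whether a library is 1 clone, and the culture conditions: none of these is given in the sources used here. With 1 library on each side there is no replicate check, so no p-value is given and every difference below is one between libraries.

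Yap1 encodes a transcriptional coactivator that binds no DNA itself and acts through the TEAD factors. The Hippo kinases, ending in Lats1 and Lats2, phosphorylate it and keep it out of the nucleus, and several of its target genes feed back on it. In the early embryo Yap1 and Tead4 act in the outer cells that become trophectoderm, the source of the trophoblast, and nuclear Yap1 is also tied to the actin cytoskeleton, whose genes are largely driven by the SRF factor through a sequence called the CArG box.

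The letters most often bound by TEAD factors, GGAATG or on the other strand CATTCC, were looked up in the 250 bases before each transcription start in RefSeq (GRCm38.p6). The genes shown are 4 of the Hippo and TEAD group and 4 actin genes that were at least 2-fold higher in Yap1_OE than in both BirA and ESC and whose window holds these letters, which are in capitals. The first stretch is the whole window and the others are the surroundings of the match, each read in the direction of the gene.
Cyr61 (Ccn1 in RefSeq, chr3:145649986-145650235, minus strand): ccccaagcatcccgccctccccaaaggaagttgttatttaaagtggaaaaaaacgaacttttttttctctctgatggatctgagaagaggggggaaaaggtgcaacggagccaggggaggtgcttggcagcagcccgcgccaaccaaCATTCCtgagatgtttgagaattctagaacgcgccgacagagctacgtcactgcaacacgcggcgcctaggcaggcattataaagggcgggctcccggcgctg
Amotl2 (chr9:102717714-102717769, plus strand): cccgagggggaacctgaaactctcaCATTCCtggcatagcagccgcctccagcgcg
Ptpn14 (chr1:189728097-189728152, plus strand): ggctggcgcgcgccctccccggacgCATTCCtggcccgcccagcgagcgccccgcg
Vgll3 (chr16:65815101-65815156, plus strand): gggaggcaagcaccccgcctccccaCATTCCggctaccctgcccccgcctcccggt
Acta1 (chr8:123894791-123894846, minus strand): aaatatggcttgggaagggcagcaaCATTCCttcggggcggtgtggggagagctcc
Acta2 (chr19:34255489-34255544, minus strand): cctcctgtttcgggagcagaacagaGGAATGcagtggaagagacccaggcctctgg
Tpm1 (chr9:67049239-67049294, minus strand): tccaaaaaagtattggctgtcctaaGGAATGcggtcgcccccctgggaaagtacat
Cald1 (chr6:34598326-34598381, plus strand): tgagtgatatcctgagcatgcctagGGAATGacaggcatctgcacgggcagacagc

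The matches begin 103 bases before the start in Cyr61, 65 in Amotl2, 146 in Ptpn14, 63 in Vgll3, 46 in Acta1, 146 in Acta2, 56 in Tpm1 and 153 in Cald1. Among genes compared, 9324 of 11644 had a window in the set of RefSeq promoters used, and 12.7% of them held the letters on either strand in at least 1 window. Of the genes at least 2-fold higher than in both controls, 71 of 104 had a window and 20 of these (28.2%) held the letters, against 13 of 88 (14.8%) of the genes at least 2-fold lower. Per window rather than per gene the shares were 23.7% and 12.1%, beside 10.6% over the genes compared and 12.6% over all 32851 windows of the table. The AP-1 letters TGANTCA stood in 11.3% of the higher genes, 11.4% of the lower genes and 4.95% of the genes compared. The CArG box stood in 7 of the 71 higher genes (9.86%), among them Acta1, Myl9 and Igf2, in 3 of 88 lower genes (3.41%) and in 1.43% of the genes compared. Krt8, Krt18, Krt7, Igfbp3 and Fgfr2 held no TEAD letters in this window. These are matches of letters, and no binding was measured.

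The depth behind these values was estimated from the steps between low values. It came to 14.5 M (mega) fragments for BirA, 21.9 M for Yap1_OE and 14.7 M for ESC, so that 1 FPKM of a 2 kb transcript stands for about 29.1, 43.7 and 29.5 fragments. Yap1_OE was thus 1.5 times as deep as its control. Over 8537 genes that reached 5 FPKM in at least 1 of the 3 libraries, the log2 ratio had a standard deviation across genes of 0.44 for Yap1_OE over BirA, 0.44 for Yap1_OE over ESC and 0.36 for BirA over ESC. The ratios also moved with the GC content of the transcript: the Spearman rho across 8503 genes was -0.19 for Yap1_OE over BirA, -0.37 for Yap1_OE over ESC and -0.18 for BirA over ESC. The genes called higher and lower below had median GC contents of 49.9% and 53.7%, beside 50.1% over all genes. With the GC trend removed the counts given below were 149 and 233 against BirA and 101 and 101 against both controls.

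The overexpression was visible in Yap1 itself. Yap1 RNA stood at 139.0 FPKM in Yap1_OE, 46.7 in BirA, 65.4 in ESC and 37.4 in Control. It was 2.98-fold above BirA and 2.13-fold above ESC, and no undifferentiated control reached it. A gene-level value does not separate RNA of an added copy from that of the endogenous gene.

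The 8 fixed markers of undifferentiated ES cells (Pou5f1, Sox2, Nanog, Zfp42, Utf1, Dppa5a, Tdgf1 and Sall4) stood at 1 FPKM or more in every library, the differentiated ones included, so their presence alone does not separate these states. Their summed level was 4489 FPKM in Yap1_OE, 6151 in BirA, 5011 in ESC and 5816 in Control, against 2228 in dESC_control and 3297 in dESC_Yap1_KD1. Dppa5a was the largest part of the sum in Yap1_OE, BirA, ESC and Control, at 1933, 2990, 1764 and 2947 FPKM. In Yap1_OE it thus lay below BirA and above ESC. Sall4 was the only one of the 8 above BirA, at 123.4 FPKM against 96.4. The 12 markers of feeder fibroblasts summed to 10.9 FPKM in Yap1_OE, 23.9 in BirA and 22.1 in ESC, and without Thy1 the other 11 summed to 6.21, 4.65 and 3.46, a sum chosen after the values were seen. At 1 FPKM or more stood 4 of them in Yap1_OE, 3 in BirA and 2 in ESC, with the matrix genes Postn, Dcn and Lum listed at 0 in all 3. Trophoblast markers summed to 25.8 FPKM in Yap1_OE, 11.2 in BirA and 7.26 in ESC. In Yap1_OE 5 of 9 reached 1 FPKM, as did 3 in BirA and 3 in ESC. The defining factor Elf5 was listed at 0 in Yap1_OE and ESC. Krt7 and Hand1 were the largest parts of the sum in Yap1_OE, at 10.97 and 5.46 FPKM. Eomes, Ascl2, Tfap2a and Elf5 lay below BirA. Mesoderm markers summed to 6.43, 1.39 and 1.61 FPKM, of which only Hand1 reached 1 FPKM in Yap1_OE. In bulk RNA a change in the number of cells of a type and a change in RNA per cell cannot be told apart.

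In Yap1_OE 159 genes (1.38% of 11514) were at least 2-fold higher than in BirA and 246 (2.14%) at least 2-fold lower. A gene was compared as log2(FPKM + 1), which understates differences of weakly expressed genes. At the edge of this call lay the growth factor adaptor Grb10, counted at a log2 ratio of 1.004, and the LIM protein gene Ajuba, not counted at 0.96. Of the 159 higher genes, 104 were also at least 2-fold above ESC, which is 0.893% of the 11644 genes of the 3 libraries. Of the 246 lower genes, 115 (0.988%) were also at least 2-fold below ESC. In 35 of the 246 lower genes BirA was itself at least 2-fold above ESC, and in 7 of the 159 higher genes it was at least 2-fold below. Both ratios share the Yap1_OE library, so anything that affected that library alone enters both.

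The same counts with a control in the place of Yap1_OE give a scale. BirA over ESC had 107 genes at least 2-fold higher (0.937% of 11423) and 49 lower (0.429%). BirA stood at least 2-fold above both Yap1_OE and ESC in 35 genes and below both in 7. ESC stood above both Yap1_OE and BirA in 23 genes and below both in 30. Control stood above both BirA and ESC in 54 genes and below both in 19, and above both Yap1_OE and ESC in 162 and below both in 86. These counts thus depend on which pair a library is set against, and the 248 genes of Control against Yap1_OE and ESC are more than the 219 of Yap1_OE against BirA and ESC.

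**Figure D1:**
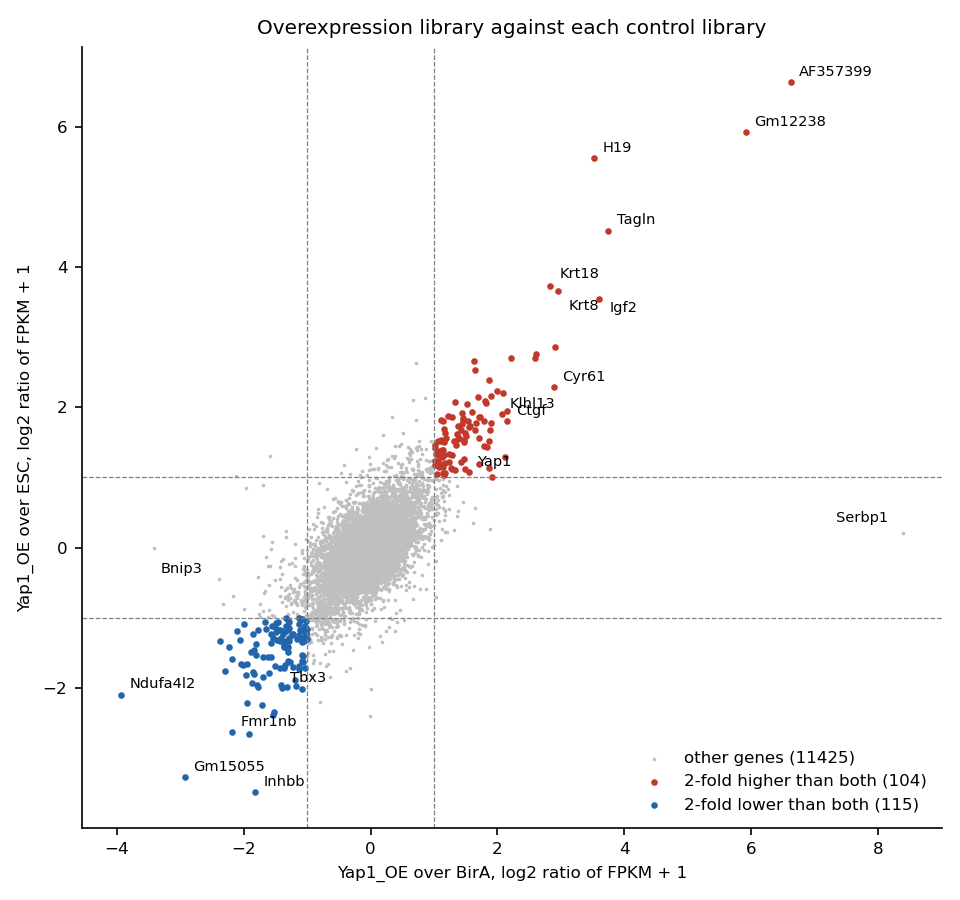
Each point is a gene, with the log2 ratio of FPKM + 1 of Yap1_OE over BirA on the horizontal axis and over ESC on the vertical axis, and dashed lines at 2-fold. The 104 red and 115 blue genes lie at least 2-fold from both controls, with Tagln, H19, Igf2, Krt8 and Krt18 far out among the higher genes; AF357399, Gm12238 and Serbp1 stand far out because a control lists them at 0.

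The factors through which Yap1 acts lay on both sides of their control levels. Of the 8 measured genes for Yap1, its paralog Wwtr1 (TAZ), the TEAD factors and the Vgll cofactors, 2 were at least 2-fold higher than in both controls, Yap1 and Vgll3, and none at least 2-fold lower. Over all genes 0.893% were higher and 0.988% lower, the shares to set beside this and each later list. Vgll3, a cofactor that binds TEAD factors in competition with Yap1, stood at 3.73 FPKM in Yap1_OE against 0.514 in BirA, 0.487 in ESC and 0.255 in Control. Wwtr1 stood at 9.89 FPKM against 9.41, 7.88 and 9.18. Tead2, the most abundant TEAD gene here, stood at 64.7 FPKM against 78.5, 84.2 and 64.4, and Tead1 at 11.9 against 10.03, 11.3 and 9.41. Tead3 stood at 2.795 FPKM against 0.974 in BirA, 0.816 in ESC and 0.957 in Control, with log2 ratios of 0.94 over BirA and 1.06 over ESC. Tead4 was the lowest relative to its controls, at 4.89 FPKM against 10.5 in BirA, 12.9 in ESC and 8.04 in Control, just short of 2-fold from BirA with a log2 ratio of -0.97.

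Most genes of the Hippo kinase and scaffold list, which does not hold inhibitors of Yap1 only, lay somewhat above BirA. Of 22 measured Hippo kinases and scaffolds, 3 were at least 2-fold higher than in both controls and none lower, and 20 of 22 lay above BirA, with a median log2 ratio of 0.38 over BirA and 0.29 over ESC. Over all genes 0.893% were at least 2-fold higher than in both controls and 0.988% lower. The medians over all genes were 0.02 and 0.00, and 52.4% lay above BirA and 50.3% above ESC. BirA lay below ESC in 17 of these 22. The 3 were inhibitors of Yap1 at the junction. Amotl2, which holds Yap1 at cell contacts, stood at 42.7 FPKM in Yap1_OE against 12.3 in BirA, 18.1 in ESC and 7.78 in Control. Amot, of the same family, stood at 3.84 against 1.14, 1.09 and 0.986, and the phosphatase gene Ptpn14 at 10.1 against 3.01, 3.64 and 3.79. The kinases differed less: Lats2 stood at 1.54 FPKM against 0.785 in BirA, Lats1 at 3.75 against 2.61, and the upstream kinases Stk3 and Stk4 differed from BirA by log2 ratios of -0.01 and -0.02.

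Target genes recorded as a YAP/TEAD signature in other cells ranged from many-fold higher to slightly lower than in the controls. Of 22 listed genes 16 reached 1 FPKM, of which Lats2 and Crim1 did so in Yap1_OE but not in BirA or ESC. Of the 16 genes 5 were at least 2-fold higher than in both controls and none lower, beside 0.893% and 0.988% of all genes. The median log2 ratio was 0.63 over BirA and 0.51 over ESC. Cyr61, a secreted matrix-associated protein, stood at 32.7 FPKM in Yap1_OE, 3.56 in BirA, 5.88 in ESC and 3.38 in Control, 9.18-fold above BirA. Ctgf, its close relative, stood at 29.1 FPKM against 5.74, 7.62 and 2.73, or 5.07-fold above BirA. Igfbp3, a binder of insulin-like growth factors, stood at 17.4 FPKM against 4.14, 5.79 and 5.08. Control, which took no part in the call, also lay below Yap1_OE in all 3. The coagulation factor receptor F3 stood at 8.96 FPKM against 4.43, 3.57 and 4.09, a log2 ratio of 0.88 over BirA and 1.12 over ESC, and Crim1 at 1.845 against 0.544, 0.635 and 0.492. Ankrd1, a widely used reporter gene of YAP activity, was listed at 0 in BirA, ESC and Control and stood at 0.302 FPKM in Yap1_OE, under the minimum. The receptor gene Axl stood at 1.03 FPKM against 1.25 in BirA, and the membrane repair gene Myof at 7.28 against 9.81.

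Genes of the actin cytoskeleton were among the largest differences. Of 26 measured actin and SRF target genes, 6 were at least 2-fold higher than in both controls and none lower, beside 0.893% and 0.988% of all genes. Above BirA lay 22 of them and above ESC 22, beside 52.4% and 50.3% of all genes. Tagln, an actin-binding protein of smooth muscle, stood at 66.3 FPKM in Yap1_OE, 4.01 in BirA, 1.94 in ESC and 2.31 in Control, 16.5-fold above BirA. The muscle actins Acta1 and Acta2 stood at 3.62 and 3.69 FPKM against 0.252 and 0.434 in BirA. The myosin light chain gene Myl9 stood at 7.27 FPKM against 1.54 in BirA, 1.81 in ESC and 2.06 in Control. Tpm1, an abundant tropomyosin, stood at 141.5 FPKM against 53.1, 47.4 and 47.3, and Cald1, a caldesmon, at 26.5 against 11.5, 10.3 and 13.2. The factor itself, Srf, stood at 28.0 FPKM against 20.6 in BirA and 24.9 in ESC. The smooth muscle marker list summed to 19.9 FPKM in Yap1_OE, 13.7 in BirA and 18.6 in ESC. Acta2 is in both lists, and Actg2 of the smooth muscle list was at 0 in Yap1_OE and BirA.

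Outside the actin list, adhesion and matrix genes gave single members. Thbs1, a secreted matrix glycoprotein, stood at 7.50 FPKM in Yap1_OE against 0.413 in BirA, 0.306 in ESC and 0.0449 in Control. It was the only one of 26 measured collagen, laminin and matrix genes at least 2-fold above both controls, while 4 were at least 2-fold above BirA. The lysyl oxidase gene Loxl2 was at least 2-fold below BirA, at 1.46 FPKM against 7.01, and ESC had 3.605. The gap junction gene Gja1 stood at 113.1 FPKM against 40.4, 30.7 and 12.2. Anxa3, a membrane-binding annexin, stood at 19.7 FPKM against 2.40, 2.05 and 3.13. The uncharacterised genes 3830417A13Rik and 4933402E13Rik also belong to the highest ratios, with 8.15 and 11.4 FPKM against 0.223 and 2.496 in BirA and 0.264 and 1.95 in ESC. Of 16 measured integrin and focal adhesion genes, the parvin gene Parva was at least 2-fold higher, at 4.14 FPKM against 1.32 in BirA, and the tensin gene Tns1 at least 2-fold lower, at 1.05 against 4.87. Vim, the intermediate filament of mesenchymal cells, was lower, at 27.2 FPKM in Yap1_OE against 71.9 in BirA, 91.8 in ESC and 59.2 in Control.

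Trophoblast genes formed the list with the highest median. Of 20 measured members, 10 were at least 2-fold higher than in both controls and none lower, beside 0.893% and 0.988% of all genes. The median log2 ratio was 1.07 over BirA, 1.02 over ESC and 0.17 for BirA over ESC. The 10 were Krt8, Krt18, Krt7, Hand1, Gata3, Fgfr2, Id2, Wnt7b, Rhox6 and Rhox9. Krt8 and Krt18, the keratins that pair in the filaments of simple epithelia, stood at 63.4 and 129.6 FPKM in Yap1_OE, against 7.32 and 17.5 in BirA, 4.12 and 8.87 in ESC, and 5.98 and 18.7 in Control. Krt7 stood at 10.97 FPKM against 2.28, 1.29 and 3.98. In each of these libraries Krt18 was the highest of the 3 and Krt7 the lowest, and Yap1_OE lay above every control for all 3.

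The trophoblast transcription factors did not move as 1 group. Hand1, needed for giant cells of the placenta and for heart and mesoderm, stood at 5.46 FPKM in Yap1_OE against 0.456 in BirA, 0.675 in ESC and 0.0743 in Control. Gata3 stood at 2.26 FPKM against 0.149, 0.0842 and 0.0139. Cdx2, which defines trophectoderm, stood at 0.970 FPKM, just under the minimum, against 0.0331, 0.0654 and 0.0648. Eomes, another early trophoblast factor, lay the other way, at 1.03 FPKM against 2.40, 1.83 and 2.75, and Elf5 was listed at 0. Tfap2c stood at 29.9 FPKM against 29.6 in BirA and 21.2 in ESC. The receptor Fgfr2, through which trophoblast stem cells respond to FGF, stood at 6.74 FPKM against 1.40, 0.747 and 0.562. The homeobox genes Rhox6 and Rhox9 stood at 10.1 and 6.78 FPKM against 1.56 and 1.91 in BirA. They are close copies in 1 gene cluster, so the split of fragments between them is uncertain.

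**Figure D2:**
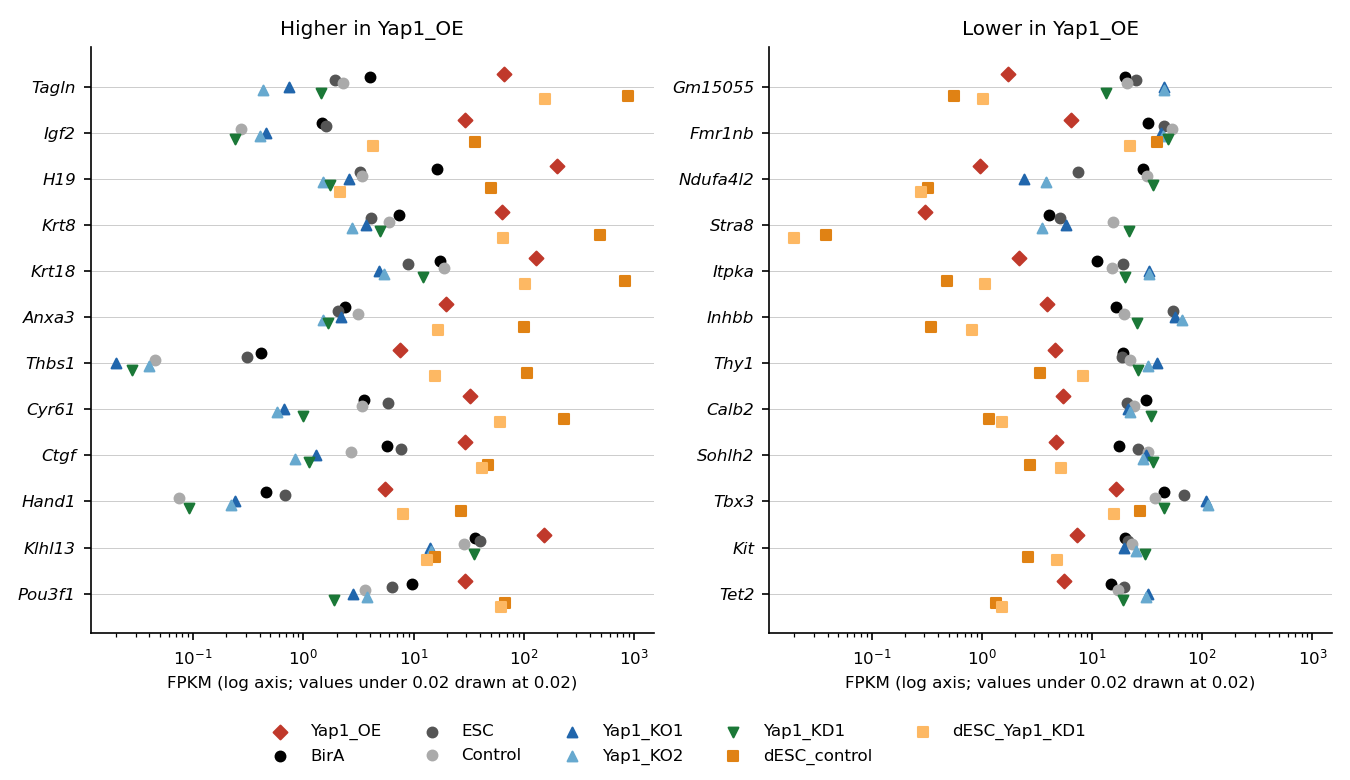
FPKM on a log axis of 12 genes higher (left) and 12 genes lower (right) in Yap1_OE, with 1 marker for each of the 9 libraries. The red diamond of Yap1_OE lies to the right of the black and grey control circles for each gene on the left, such as Tagln at 66.3 FPKM against 4.01 in BirA, and to their left for each gene on the right, such as Inhbb at 3.94 against 16.5.

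Imprinted genes, which are expressed from 1 parental copy, included Igf2 and H19, which came directly after Tagln in the ratio to the nearer control once genes listed at 0 were set aside. Igf2, a fetal growth factor, stood at 29.2 FPKM in Yap1_OE, 1.49 in BirA, 1.59 in ESC and 0.273 in Control. H19, the noncoding RNA that lies beside Igf2 and shares its imprinting control region, stood at 198.5 FPKM against 16.3, 3.24 and 3.39. For H19 the controls did not sit together, with BirA above ESC and Control, and Yap1_OE lay above all of them. Of 23 measured imprinted genes 7 were at least 2-fold above BirA and 1 below, beside 1.38% and 2.14% of all genes. Above both controls were 5 of 25, beside 0.893% of all genes. The other 3 of these 5 were Peg10, a retrotransposon-derived gene of the placenta, at 125.8 FPKM against 32.6, 62.2 and 28.2, Impact, a translation regulator, at 49.1 against 19.7, 21.9 and 21.7, and Peg3, a zinc finger gene, at 11.4 against 4.58, 3.37 and 2.92. Mest stood at 54.5 FPKM against 22.5 in BirA and 32.0 in ESC, 2-fold above BirA and short of it above ESC, and Grb10 at 52.3 against 25.6 and 32.0, with log2 ratios over ESC of 0.75 and 0.69. Slc22a18, a transporter gene, was the 1 below, at 1.38 FPKM against 4.805 in BirA, 2.905 in ESC and 3.25 in Control. The median log2 ratio of the list was 0.52 over BirA and 0.56 over ESC, and 19 of 23 genes lay above BirA. Some members lay near their controls: the receptor Igf2r stood at 11.2 FPKM against 11.2 in BirA and 14.6 in ESC, and the placental regulator Phlda2 at 152.1 against 174.2 and 140.7.

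The core pluripotency genes lay less than 2-fold from BirA. None of 15 measured core genes was called, beside 1.38% of all genes at least 2-fold above BirA and 2.14% below. In a list of this size the lack of calls is near the share over all genes. Of the 15 genes 9 lay below BirA and 6 above, among them Gdf3 and Lin28a at log2 ratios of 0.91 and 0.63. Pou5f1, the central factor, stood at 1017 FPKM in Yap1_OE against 1260 in BirA, 1240 in ESC and 1138 in Control. Sox2 stood at 302.0 FPKM against 392.8, 356.9 and 317.2, and Nanog at 165.2 against 207.0, 226.2 and 266.2. All 3 were below every undifferentiated control, as were 25.6% of the genes compared. Their log2 ratios to BirA were -0.31, -0.38 and -0.32. For BirA over ESC the ratios of these genes were 0.02, 0.14 and -0.13. The standard deviation across genes is larger, but it is a spread over different genes and does not measure the error of a gene. Of 17 naive factors 1 was called: Tbx3 stood at 16.4 FPKM against 44.8 in BirA, 68.8 in ESC and 37.1 in Control. The other naive genes lay between a log2 ratio of -0.74, in the Akt coactivator gene Tcl1, and 0.36, in Dppa3. Klf4 and Esrrb stood at 60.7 and 149.3 FPKM against 92.2 and 201.9 in BirA. Of 17 naive genes 15 lay below ESC, and BirA also lay below ESC in 15.

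Some factors of the formative and primed epiblast, the state that follows naive pluripotency, were higher. Of 16 measured genes, 3 were at least 2-fold above BirA and 2 above both controls, beside 1.38% and 0.893% of all genes, and none was 2-fold lower. Pou3f1, a POU factor related to Pou5f1, stood at 29.4 FPKM in Yap1_OE against 9.60 in BirA, 6.33 in ESC and 3.60 in Control. The DNA methyltransferase Dnmt3b stood at 99.3 FPKM against 46.7, 65.8 and 31.1 and was 2-fold above BirA and short of it above ESC, with a log2 ratio of 0.59. The remaining member is Krt18, given above. Otx2 stood at 35.6 FPKM against 36.2 in BirA, Fgf5 reached 0.878 FPKM against 0.0879, and Etv4 stood at 28.3 against 43.6. The dioxygenase Tet2, which acts on methylated DNA in naive cells, was lower, at 5.55 FPKM against 14.8, 19.4 and 17.0, while Tet1 stood at 26.6 against 24.1 in BirA.

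Signalling genes were called one by one. In the Nodal list of 19 measured genes Inhbb, the activin B subunit, was at least 2-fold lower, at 3.94 FPKM in Yap1_OE against 16.5 in BirA, 54.4 in ESC and 19.6 in Control, and Nodal itself stood at 43.0 against 34.0, 23.8 and 19.5. In the BMP list of 15, Bmp4 was lower at 7.80 FPKM against 17.5, 34.6 and 15.7, and Id2, an inhibitor of helix-loop-helix factors, was higher at 27.5 against 10.6, 6.85 and 9.17, with Bmp1 and Bmp8b also at least 2-fold higher. In the Wnt list of 21, the ligands Wnt4 and Wnt7b and the receptor Fzd2 were at least 2-fold above both controls, and Wnt7b stood at 9.68 FPKM against 2.79, 3.90 and 1.29. The Wnt feedback gene Axin2 stood at 2.14 FPKM against 2.81 in BirA. In the FGF list of 20, Fgfr2 and the FGF carrier Fgfbp1 were above both controls, and the ERK feedback gene Dusp6 stood at 32.1 FPKM against 27.8, 32.0 and 20.05. No gene of the 16 measured in the LIF and STAT3 list lay 2-fold from BirA, beside 1.38% of all genes higher and 2.14% lower.

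Of 20 measured AP-1 and immediate early genes Jun, an AP-1 subunit, was at least 2-fold above both controls, at 6.85 FPKM against 2.37 in BirA, 1.15 in ESC and 3.12 in Control. Fos stood at 1.61 FPKM against 3.54, 1.45 and 1.93. Ier3, a stress-induced survival gene, was at least 2-fold below BirA, at 9.35 FPKM against 32.7, but ESC had 4.60. Genes of the cell cycle and of p53 gave single members. Of 32 measured cyclin, CDK, E2F and Myc genes 3 were at least 2-fold above both controls, beside 0.893% of all genes. Mycn, the Myc family member of the epiblast, stood at 244.7 FPKM in Yap1_OE against 120.2 in BirA, 103.9 in ESC and 54.0 in Control. The neighbouring cell cycle inhibitors Cdkn2a and Cdkn2b stood at 23.8 and 4.11 FPKM against 9.53 and 1.46 in BirA, and Control had 17.1 and 2.76. Of 24 measured p53 targets 3 were at least 2-fold above both controls, beside 0.893% of all genes. They were Perp, a desmosomal membrane protein, at 19.01 FPKM against 5.77 in BirA, the kinase Plk2 at 28.1 against 10.5, and Phlda3, a repressor of Akt, at 106.7 against 52.1. Cdkn1a, a p53 target that arrests the cell cycle, stood at 28.9 FPKM against 41.7 in BirA, 22.7 in ESC and 35.6 in Control, within the range of the controls.

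**Figure D3:**
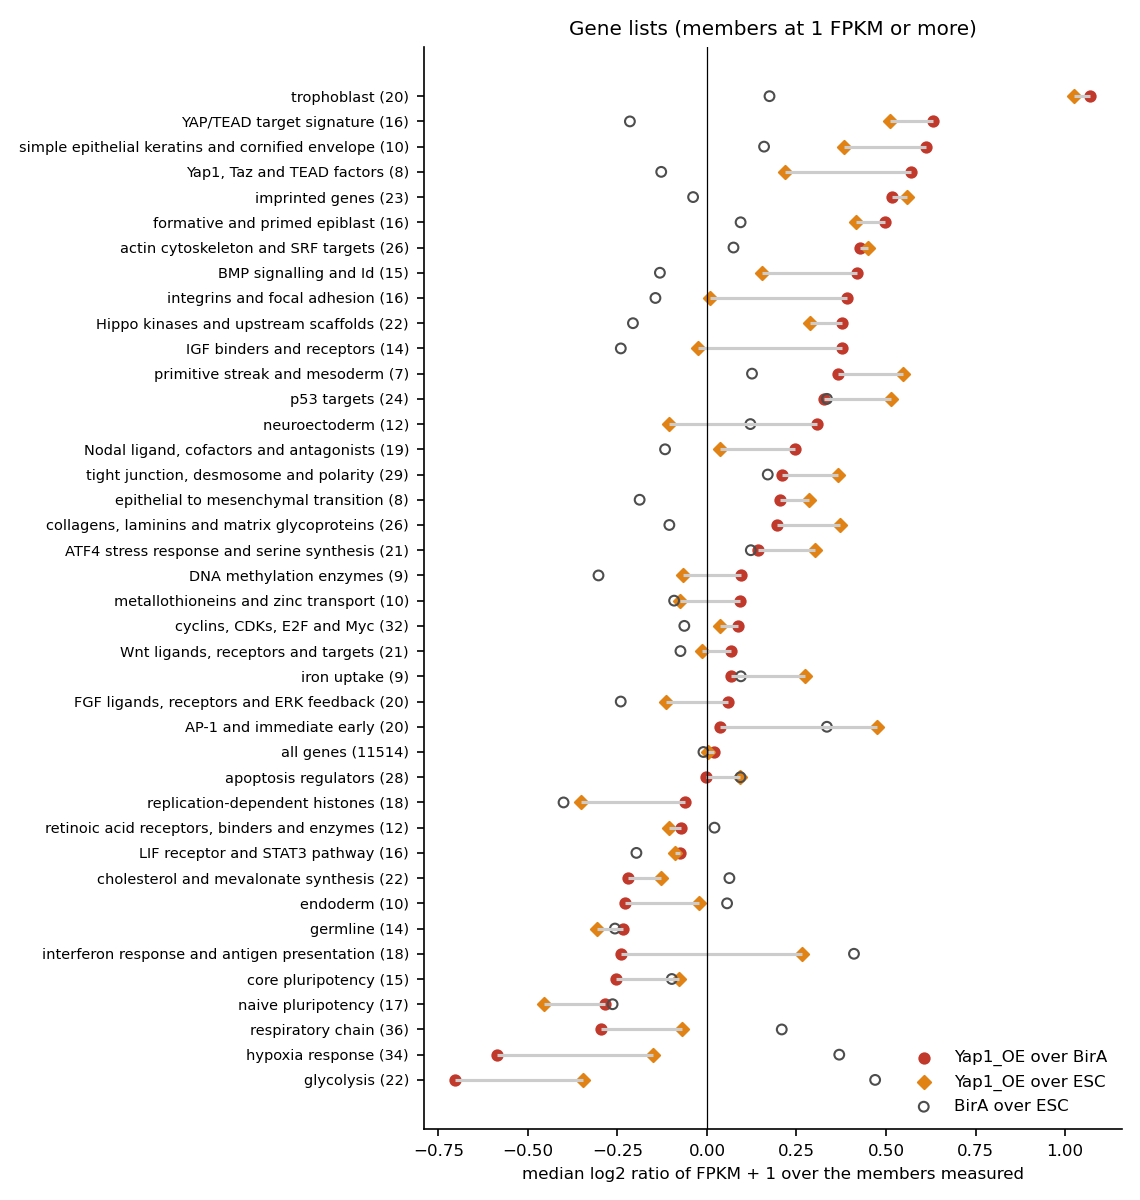
Median log2 ratio of FPKM + 1 of each gene list, for Yap1_OE over BirA (red circles), Yap1_OE over ESC (orange diamonds) and BirA over ESC (open circles), with the number of measured members in brackets. Trophoblast genes have the highest medians, 1.07 over BirA and 1.02 over ESC, while the glycolysis and hypoxia lists differ between the controls, with BirA over ESC at 0.47 and 0.37.

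The genes furthest below both controls are known from several different tissues. Gm15055, an uncharacterised gene, stood at 1.72 FPKM in Yap1_OE against 19.8 in BirA, 25.3 in ESC and 20.8 in Control, 11.5-fold below BirA. Stra8 and Sohlh2, regulators of germ cell development, stood at 0.308 and 4.69 FPKM against 4.07 and 17.6 in BirA, 5.08 and 26.0 in ESC and 15.3 and 32.1 in Control. Smc1b, a cohesin subunit of meiosis, stood at 0.925 FPKM against 6.90, 5.11 and 10.2. Of the 14 measured genes of the germline list, however, 2 were at least 2-fold below BirA, Sohlh2 and Gm1564, and 6 lay above it. Stra8 and Smc1b are not in that list. Thy1, a surface glycoprotein of ES cells, neurons and fibroblasts, stood at 4.64 FPKM against 19.3, 18.7 and 22.3, and Kit, the stem cell factor receptor, at 7.34 against 19.8, 21.4 and 23.1. The light chains of muscle myosin Myl4, Myl7 and Myl2 were at least 2-fold below both controls, with Myl4 at 0.633 FPKM against 4.95 in BirA and Myl7 at 3.24 against 12.8, the opposite side from Myl9. Calb2, a calcium-binding protein of neurons, stood at 5.48 FPKM against 30.9, 20.97 and 24.3. Itpka, a kinase of inositol trisphosphate, stood at 2.19 FPKM against 10.99, 19.1 and 15.1, Trf, the iron carrier transferrin, at 1.53 against 8.13, 7.66 and 8.89, and the secreted protein Crtac1 at 1.06 against 7.01, 6.29 and 9.67. In each of these genes Yap1_OE lay below all 3 controls. Crabp1, which binds retinoic acid, stood at 24.3 FPKM against 85.5, 56.1 and 104.6, and the uncharacterised Fam25c at 19.8 against 83.4, 65.2 and 55.5. Upp1, a uridine phosphorylase, was among the most abundant, at 86.5 FPKM against 312.5, 240.8 and 358.7.

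Genes of the hypoxia response depended on the control. Of 34 measured genes 10 were at least 2-fold below BirA and none above, beside 2.14% and 1.38% of all genes. But only 1 of 35 was at least 2-fold below both controls, beside 0.988% of all genes. The median log2 ratio was -0.59 over BirA and -0.15 over ESC, and BirA lay above ESC in 32 genes with a median of 0.37. Bnip3, a mitophagy receptor, stood at 4.97 FPKM in Yap1_OE, 30.2 in BirA, 55.1 in Control and 7.16 in ESC. The prolyl hydroxylase Egln3, which marks HIF for decay, stood at 12.1 FPKM against 38.5 in BirA, 29.9 in Control and 14.7 in ESC. Ddit4, an inhibitor of mTOR, lay between its controls, at 68.2 FPKM against 207.0 in BirA and 27.1 in ESC. Ndufa4l2, which lowers complex I activity, was the 1 gene at least 2-fold below both controls, at 0.963 FPKM against 29.0 in BirA, 31.3 in Control and 7.39 in ESC. Yap1_OE lay below all 3 controls in Bnip3 and Egln3 too, where ESC was the nearest to it, and in 18 of the 34 genes in all, beside 25.6% of the genes compared.

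Glycolysis genes had the same form, with a remainder below ESC. Of 22 measured genes 5 were at least 2-fold below BirA, 2 of them (Aldoc and Pfkp) below both controls, and none was above. Over all genes 2.14% were at least 2-fold below BirA and 0.988% below both controls. The medians were -0.70 over BirA, -0.35 over ESC and 0.47 for BirA over ESC, and 18 of 22 genes lay below ESC. The aldolase Aldoc stood at 4.92 FPKM against 29.5 in BirA, 36.1 in Control and 13.9 in ESC. The phosphofructokinase Pfkp stood at 27.7 FPKM against 70.2, 85.3 and 57.8, and the enolase Eno1 at 57.6 against 187.5, 98.3 and 90.7. Nuclear genes of the respiratory chain were lower in smaller steps. None of 36 reached 2-fold, 34 lay below BirA and 25 below ESC, beside 47.6% and 49.7% of all genes, with medians of -0.30 and -0.07, and BirA lay above ESC in 31.

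**Figure D4:**
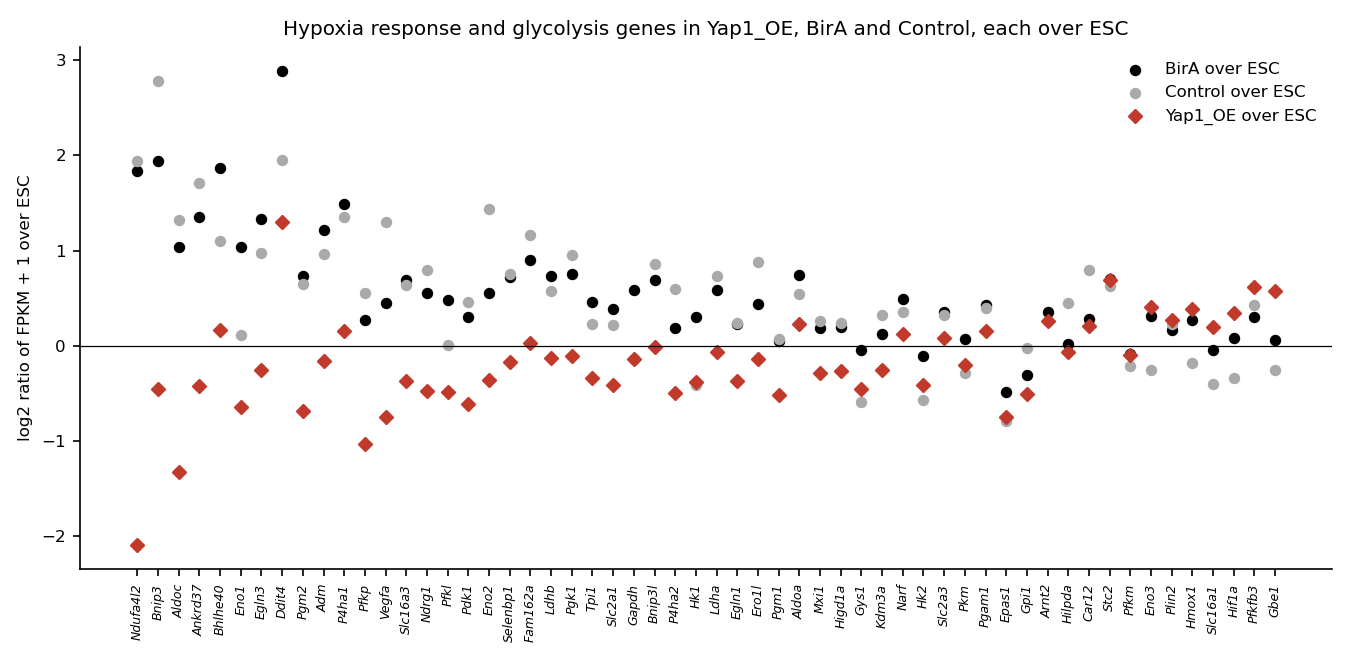
Log2 ratio of FPKM + 1 over ESC of BirA (black circles), Control (grey circles) and Yap1_OE (red diamonds) for the measured hypoxia response and glycolysis genes, ordered by Yap1_OE over BirA. BirA and Control lie mostly above 0 on the left, where Yap1_OE lies mostly near or below 0 with Ddit4 above it at 1.30, and Ndufa4l2, Aldoc and Pfkp are at least 2-fold below ESC in Yap1_OE.

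The genes of the overexpression comparison were then followed in libraries that took no part in choosing them. These are Yap1_KD1 against Control, dESC_control against Control, and dESC_Yap1_KD1 against dESC_control, read over the same 11644 genes. The knockdown and the differentiation comparison share Control, and both differentiated comparisons share dESC_control. In the knockdown of undifferentiated cells 21 genes (0.18%) lay 2-fold or more above Control and 28 (0.24%) below. Of the 104 genes higher in Yap1_OE, 78 (75%) were lower in the knockdown than in Control and 8 (7.69%) at least 2-fold lower, with a median log2 ratio of -0.23. These 8 were Yap1 itself, Amotl2, Cyr61, Id2, Myl9, Peg10, Raet1c and AF357399. Yap1 is the gene changed by design in both libraries. AF357399 was called because BirA and ESC list it at 0, and at 98.1 FPKM in Yap1_OE it lay below the 288.4 of Control. Cyr61 stood at 0.999 FPKM in Yap1_KD1 against 3.38 in Control, and Amotl2 at 3.12 against 7.78. Of the 115 genes lower in Yap1_OE, 88 (76.5%) were above Control in the knockdown, with a median of 0.20, and 4 at least 2-fold above, Fam25c, Gm21283, Slc15a1 and Tuba3a. Over all genes 50.7% lay above.

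Most of these genes also differed between undifferentiated and differentiated cells. From Control to dESC_control 1292 genes (11.1%) lay 2-fold or more above and 1146 (9.84%) lay 2-fold or more below. Of the 104 genes higher in Yap1_OE, 85 (81.7%) were at least 2-fold higher in dESC_control and 1 lower, with a median log2 ratio of 3.05. Of the 115 lower genes, 102 (88.7%) were at least 2-fold lower and none higher, with a median of -2.11. The higher genes are weak in undifferentiated cells, with a median of 1.65 FPKM in Control, and among all genes under 5 FPKM in Control 19.3% were at least 2-fold higher in dESC_control. The genes that separated BirA from ESC had other shares: of the 107 genes higher in BirA than in ESC, 14% were higher and 43% lower in dESC_control, and of the 49 lower ones 24.5% were higher and 18.4% lower.

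For most of these genes Yap1_OE lay between the undifferentiated and the differentiated level. The side towards BirA and ESC was fixed by the choice of the genes, and only the side towards dESC_control was not. The median of the 104 genes was 7.87 FPKM in Yap1_OE, 1.92 in BirA, 1.59 in ESC and 26.5 in dESC_control. Of the 104 genes 36 stood under 1 FPKM in BirA and 40 in ESC. Tagln stood at 880.5 FPKM in dESC_control against 66.3 in Yap1_OE, Krt8 at 486.3 against 63.4, and Cyr61 at 231.2 against 32.7. In 21 of the 104 genes Yap1_OE lay above dESC_control, among them H19 with 198.5 against 50.5 FPKM, Fgfr2 with 6.74 against 3.28, Mycn with 244.7 against 81.7 and Yap1 with 139.0 against 78.0. Klhl13, an adaptor of a ubiquitin ligase, is one of the 19 that were not 2-fold higher in dESC_control, at 153.3 FPKM in Yap1_OE against 35.8 in BirA, 40.3 in ESC, 28.7 in Control and 15.8 in dESC_control. Spink3, a protease inhibitor, stood at 37.7 FPKM against 8.10, 7.40, 1.17 and 0.681. On the lower side Tbx3, Vim and Fmr1nb are among the 13 that were not 2-fold lower in dESC_control, and Fmr1nb stood at 6.41 FPKM in Yap1_OE, 52.9 in Control and 39.2 in dESC_control.

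In differentiated cells most of the higher genes lay lower under the knockdown. From dESC_control to dESC_Yap1_KD1 168 genes (1.44%) lay 2-fold or more above and 421 (3.62%) below. Of the 104 higher genes 57 (54.8%) were at least 2-fold lower under the knockdown and 1 higher, with a median log2 ratio of -1.23. Tagln stood at 156.4 FPKM in dESC_Yap1_KD1 against 880.5 in dESC_control, Krt8 at 65.2 against 486.3, H19 at 2.16 against 50.5 and Thbs1 at 15.6 against 105.9. Ctgf differed less, at 42.1 against 47.4, and Hand1 stood at 7.97 against 27.1. Of the 115 lower genes 16 (13.9%) were at least 2-fold higher under the knockdown and 2 lower, with a median of 0.15. Since 55 of these 57 genes were also at least 2-fold higher in dESC_control than in Control, and both comparisons use dESC_control, the values of that 1 library weigh on both.

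**Figure D5:**
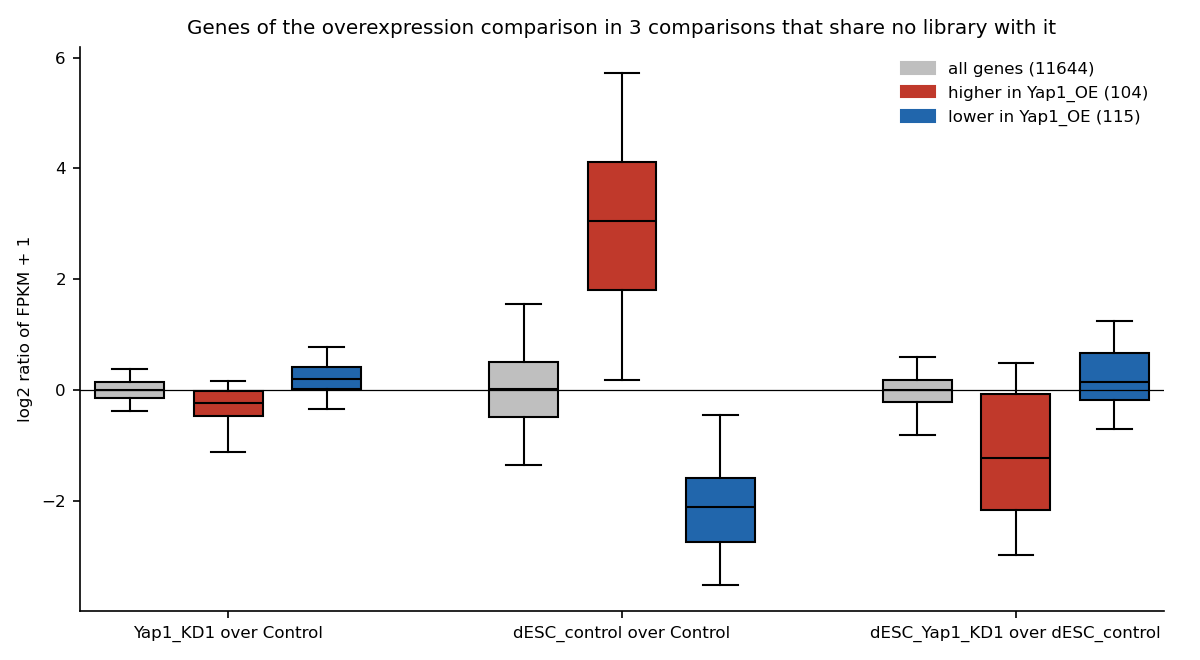
Log2 ratio of FPKM + 1 in 3 comparisons that hold neither Yap1_OE, BirA nor ESC, for all 11644 genes (grey) and for the genes at least 2-fold higher (red, 104) and lower (blue, 115) in Yap1_OE than in both controls; boxes are quartiles with the median, whiskers the 5th and 95th percentiles. The red medians are -0.23, 3.05 and -1.23 and the blue medians 0.20, -2.11 and 0.15.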

How the data were processed

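The authors deposited 1 table of FPKM values per gene for 9 libraries of polyadenylated RNA. TopHat2 and Cuffdiff were used with build mm9, per the submitters' processing notes; versions, annotation and strandedness: not given in the sources used here. Cuffdiff can fail to estimate a gene, so a listed 0 is not proof of absence: AF357399, Gm12238 and Serbp1 were listed at 0 in BirA. Of 23277 rows, 4746 blank, 27 date-like and 168 small RNA rows (symbols starting Mir, Snor, Rnu or Scarna, 15.9% to 23.6% of the summed FPKM) were left out.

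Genes that reached 1 FPKM in a library of the comparison were compared as log2(FPKM + 1) and counted at 2-fold or more, with no test. Folds are ratios of FPKM. The counting was tested on simulated data, with planted changes larger than 2-fold in genes at 5 FPKM or more, sampling noise only and equal depth. That check does not cover genes near 2-fold, weaker genes or variation between libraries. Python 3.11.15, pandas 2.3.3 and numpy 2.4.6 were used. Depth was read from the most common ratio of low values between libraries and scaled with 148 single-transcript genes (quartiles for BirA 11.8 to 14.8 M). GC content came from GENCODE transcripts of another build, for 99.4% of genes. Promoter sequences and motif windows came from a set of RefSeq promoters, matched by symbol. Ctgf, Tagln and Peg10 have no entry in that set.

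The members, the 42 gene lists and the tests were chosen with earlier results of these data known. Named genes are the 15 highest and 15 lowest by the ratio to the nearer of BirA and ESC at 5 FPKM or more, without genes listed at 0 beside 20 FPKM or more; the core members of the lists; and up to 6 more members per list at 2-fold from BirA. Other genes were named after their values were seen. Not every gene that the rule names is reported here. Alternatives varied the pseudocount, filters, scaling, GC trend and controls.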

Additional observations from a re-analysis of the deposited data

How the results depend on the processing

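Counts are given as higher and lower. With a pseudocount of 0.1 they were 326 and 537 against BirA and 203 and 307 against both controls, and with 5 they were 49 and 68, and 35 and 27. A filter at 5 FPKM gave 104 and 161 against BirA and 68 higher against both. With Control in place of BirA they were 329 and 535. All other settings run kept each count within 1.5 times, from 92 (higher than 3 controls) to 122 for the higher genes against both. Leaving out the genes listed at 0, an alternative chosen after seeing the data, gave 102 and 115. Of 1470 values of 147 named genes under the alternatives, 86 crossed the 2-fold line, 43 of them with the pseudocount of 5, and 3 turned sign: the log2 ratios of Ddit4 and Ier3 were 1.30 and 0.89 with ESC in place of BirA, and that of AF357399 was -1.55 with Control. No paired analysis was possible because each group compared has 1 library, and no library could be left out. With 1 FPKM of a 2 kb transcript at about 29.1 fragments in BirA, values well under 1 FPKM rest on few fragments, and folds against them are imprecise.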

Other observations

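X-linked genes were frequent among the higher genes. Of the 104 genes at least 2-fold above both BirA and ESC, 13 (12.5%) lie on chromosome X, which holds 393 (3.38%) of the 11644 genes compared. They are 3830417A13Rik, 4933402E13Rik, AU015836, Amot, Cited1, Fndc3c1, Hs6st2, Klhl13, Pim2, Rhox6, Rhox9, Rnf128 and Stard8. The median log2 ratio of 256 X-linked genes at 5 FPKM or more was 0.08 over BirA and 0.16 over ESC, and 0.06 for BirA over ESC. AU015836, an uncharacterised gene, stood at 36.2 FPKM in Yap1_OE against 11.7 in BirA, 10.3 in ESC and 5.10 in Control, and the kinase Pim2 at 42.4 against 18.1, 12.9 and 13.3. Of Y-linked genes Ddx3y, an RNA helicase, stood at 1.09 FPKM against 4.58, 7.12 and 8.87, while Eif2s3y, a translation factor, stood at 62.7 against 40.8, 40.0 and 57.3. Of the 115 lower genes 19 (16.5%) lie on chromosome 11, the most on any chromosome, with 8.42% of the genes compared. The median log2 ratio of its 738 genes at 5 FPKM or more was 0.01 over BirA and -0.15 over ESC. For BirA over ESC it was also -0.15.

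The interferon-inducible GTPases Gbp2 and Gbp2b were higher: Gbp2 stood at 4.90 FPKM in Yap1_OE against 0.486 in BirA, 0.254 in ESC and 0.0931 in Control. They are close copies, so the split between them is uncertain. None of the 18 measured genes of the interferon and antigen presentation list lay 2-fold from BirA, beside 1.38% of all genes higher and 2.14% lower. Their median log2 ratio was -0.24 over BirA and 0.27 over ESC. Replication-dependent histone genes lay below ESC in 18 of 18 measured cases in Yap1_OE and also in 18 of 18 in BirA. The tissue-specific cytochrome oxidase subunits Cox7a1 and Cox4i2 were lower, with Cox7a1 at 22.4 FPKM against 85.6 in BirA, 64.8 in ESC and 158.9 in Control.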
